A study of Mus musculus with 2 samples.

Results

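The Ly49 genes of the mouse encode C-type lectin-like receptors that NK cells and some T cells carry on their surface. Most of them bind class I MHC molecules, and inhibitory members pass on a stop signal through phosphatases bound to their cytoplasmic tail, whereas activating members signal through the adaptor DAP12. A cell usually uses a few of the genes and leaves the others silent, and on CD8+ T cells Ly49 receptors are known from memory-like and innate-like cells. The 7 genes described here are Klra1 (Ly49A), Klra2 (Ly49B), Klra3 (Ly49C), Klra5 (Ly49E), Klra6 (Ly49F), Klra7 (Ly49G2) and Klra9 (Ly49I). They are 7 of the 11 Klra genes and of the 31053 mouse genes in the gene expression library, and they were chosen by their measured UMI counts in these same T cells, so that their levels by cell class are a description without a test.

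The cells came from mice on a C57BL/6 background that carried B16 melanoma or B16-IL33 melanoma, a line made to secrete IL-33, on day 9 after 100000 tumor cells had been injected into the skin. No mouse received a drug, T cells were sorted on TCR-β, and cells of both tumors were tagged with hashtag antibodies and pooled. From this 1 pool came all 3 libraries (gene expression, hashtags, TCR), so the number of mice behind each tumor enters no comparison and no test across animals was possible. Values are counts of unique molecular identifiers (UMIs), of which each stands for 1 captured RNA molecule read at its 5′ end whatever its length, and they are given per 1000000 mouse UMIs (CPM) with 95% intervals that cover counting error only.

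Of 14035 barcodes, 9078 with 200 to 2500 detected genes and less than 5% mitochondrial UMIs were kept, with a median of 2467 UMIs. Of the kept cells, 8946 had a barcode in the hashtag library and 5448 had a TCR clonotype. CD8 cells (1260) had more Cd8a and Cd8b1 than Cd4 and Foxp3 UMIs. Treg cells (2609) had a Foxp3 UMI and no Cd8 UMI, Tconv cells (1769) had Cd4 without Foxp3 or Cd8, NKT cells (81) had Zbtb16 without Foxp3 or Cd8, and myeloid cells (129) had Csf1r without Cd3e. The remaining 3270 cells fell in no class. CD3 UMIs were in 97.5% to 98.8% of cells in each of the 4 T cell classes, which does not tell these classes apart. The 4 NKT markers (Zbtb16, Klrb1c, Il2rb and Icos) summed to 1150 CPM in NKT cells against 1321 CPM in Treg, 734 CPM in Tconv and 569 CPM in CD8 cells, so that NKT here means only the Zbtb16 rule. The 7 myeloid markers summed to 11783 CPM in myeloid cells against 224 to 381 CPM in the T cell classes. Of the 81 NKT cells, 21 were also Tconv cells. The other overlaps were 5 CD8, 9 Treg, 4 Tconv and 1 NKT cells that were also myeloid.

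All Klra genes lay on the minus strand of chromosome 6 (GRCm38, GENCODE vM21). The 6 members other than Klra2 stood in a cluster of 556 kb at chr6:129831154-130386874, and Klra2 stood apart, 832 kb beyond its end, at chr6:131219223-131247362. Stretches of the members' promoters are shown as a description, and a link between their sequence and the cells that held the genes was not tested. Of 12-letter words in the 250 bases before the RefSeq start sites, CTCTTTTTGCTT was held by the largest number of members, namely Klra2, Klra3, Klra6, Klra7 and Klra9. It was in 14 of 32851 promoters of this length on either strand (0.0426%), of 13 genes, and those 5 were the Klra genes among them. Klra5 held it with 1 mismatch, and Klra1 had no match with under 3 mismatches. The word is in capitals in the following stretches (RefSeq, GRCm38.p6, minus strand, 5′ to 3′), in which the letters right after the word are the same in Klra6 and Klra7. Klra7 has a second RefSeq start site, whose promoter lacks the word.
Klra7, chr6:130233356-130233427: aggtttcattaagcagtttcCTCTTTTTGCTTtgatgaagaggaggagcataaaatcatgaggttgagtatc
Klra6, chr6:130027018-130027089: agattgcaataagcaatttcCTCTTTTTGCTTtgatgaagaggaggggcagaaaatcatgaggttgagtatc
Klra9, chr6:130193113-130193166: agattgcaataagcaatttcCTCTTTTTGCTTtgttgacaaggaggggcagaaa
Klra3, chr6:130337627-130337661: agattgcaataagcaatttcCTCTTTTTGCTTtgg
Klra5, chr6:129913259-129913330: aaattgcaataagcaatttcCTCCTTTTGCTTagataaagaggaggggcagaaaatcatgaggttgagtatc
Klra2, chr6:131247378-131247449: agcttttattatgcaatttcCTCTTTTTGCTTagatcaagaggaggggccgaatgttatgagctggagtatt

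The first 3 letters after the shared word were tga in Klra6 and Klra7, tgt in Klra9, tgg in Klra3 and aga in Klra2. CTTTGA or CTTTGT, the core bound by TCF factors such as TCF-1 (Tcf7), was in the 250 bases of Klra6, Klra7 and Klra9, where a match overlaps the last letters of the shared word, and in 27.6% of all promoters. The RUNX core TGTGGT was in the Klra1 promoter and in 14.0% of all promoters, and the T-box core GGTGTG was in none of the members' promoters and in 16.3% of all. All 3 were searched on both strands, and such a match is a match of letters and not a measured binding site. In alignments of the 250 bases, Klra3 and Klra9 were the most alike at 83.6% identity, Klra5 and Klra6 had 73.1%, Klra5 and Klra7 had 70.1%, Klra6 and Klra7 had 67.9%, and Klra1 had no more than 49.2% with any member.

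Transcripts of this family are similar enough for reads to be shared. Of the stretches of 50 bases in the first 300 bases of each gene's transcripts, where 5′ reads fall, none of Klra2 or Klra7 was also found in another Klra gene, against 1.04% for Klra5, 1.20% for Klra6, 4.38% for Klra1, 4.78% for Klra9 and 6.19% for Klra3. Klra8, which is no member, shared 74.9%, all of it with the pseudogene Klra14-ps. Over whole transcripts the shared part was 31.5% in Klra9, 20.7% in Klra3 and 12.3% in Klra7, so that counts of Klra3 and Klra9 are the less certain ones where reads fell farther from the start.

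The kept cells held 1111 UMIs of the 7 genes in 448 cells. Klra7 gave 369 UMIs, Klra1 277, Klra6 142, Klra2 112, Klra9 104, Klra3 83 and Klra5 24. Among the other Klra genes, the activating receptor genes Klra8 (Ly49H) and Klra4 (Ly49D) had 37 and 26 UMIs, more than the member Klra5, whereas Klra10 had 3 and Klra17 had 1.

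Summed Ly49 levels differed widely between the classes. NKT cells had 201 CPM (95% interval 152 to 261), myeloid cells 87.8 CPM (66.5 to 114), CD8 cells 78.4 CPM (70.8 to 86.5), Tconv cells 20.3 CPM (16.6 to 24.7) and Treg cells 9.20 CPM (7.25 to 11.5). In this order the intervals of neighbours were apart except for those of myeloid and CD8 cells, with a ratio of 1.12 (0.834 to 1.48). These intervals take UMIs as independent, though 19 of the 102 Ly49 UMIs of Tconv cells were in 1 cell. Averaged over cells, the level was 14.96 CPM in Tconv and 10.3 CPM in Treg cells. The intervals of their shares of positive cells, given below, overlapped. CD8 cells stood 8.52-fold (6.65 to 11) above Treg cells and 3.86-fold (3.096 to 4.84) above Tconv cells. With no upper limit on detected genes the levels were 150 CPM in NKT, 48.5 CPM in myeloid, 46.8 CPM in CD8, 18.7 CPM in Tconv and 7.88 CPM in Treg cells, and CD8 cells then stood 5.93-fold (4.71 to 7.54) above Treg cells and 2.50-fold (2.02 to 3.12) above Tconv cells. A lower level could come from fewer cells with the RNA or from less RNA in each, and the cell counts given next separate these in part.

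**Figure D1:**
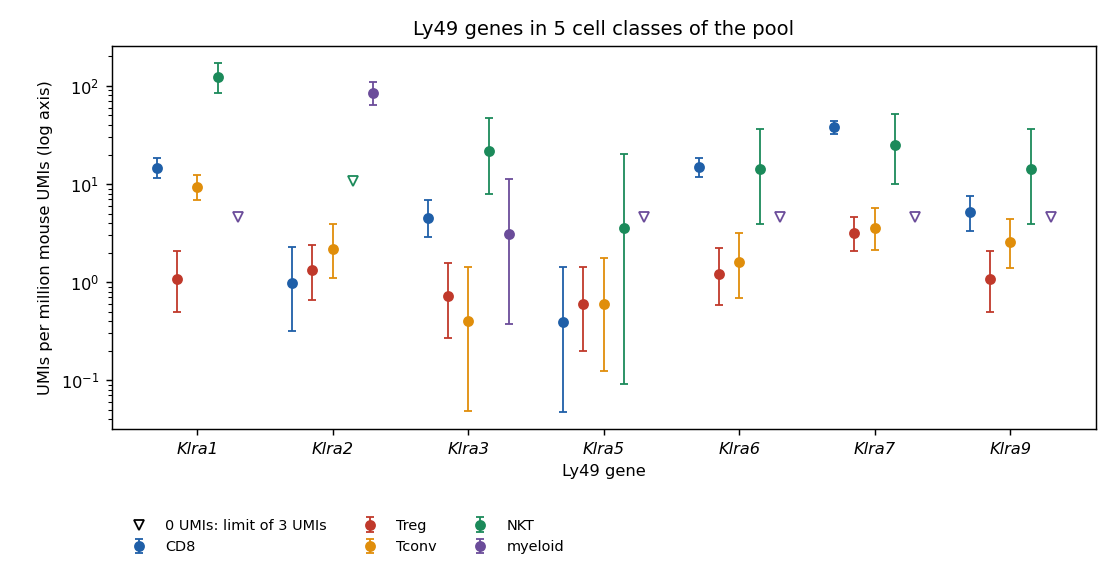
CPM (log axis) of the 7 Ly49 genes in 5 cell classes of the pool. Points are pooled levels, bars are exact Poisson 95% intervals, and open triangles mark the level of 3 UMIs where none was counted. Klra1 is highest in NKT cells at 122 CPM, Klra7 in CD8 cells at 37.8 CPM, and Klra2 in myeloid cells at 84.8 CPM.

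With each cell thinned to 1500 UMIs, which left out shallower cells (109 CD8, 454 Treg, 322 Tconv, 2 NKT and 11 myeloid cells), a Ly49 UMI was found in 87 of 1151 CD8 cells (7.56%, 6.098% to 9.24%). The share was 17.7% of 79 NKT cells (10.0% to 27.9%), 16.9% of 118 myeloid cells (10.7% to 24.96%), 1.45% of 1447 Tconv cells (0.901% to 2.21%) and 0.742% of 2155 Treg cells (0.425% to 1.20%). Without thinning the shares were 10.4%, 22.2%, 31.0%, 1.98% and 1.61% of CD8, NKT, myeloid, Tconv and Treg cells, at median depths of 3463, 2939, 4863, 2498 and 2780 UMIs. For the 6 members other than Klra2, myeloid cells gave the share of cells that should lack them. None of 118 thinned myeloid cells had a UMI of these 6 genes, which allows a share of up to 2.54%, and the shares in Tconv (1.17%) and Treg cells (0.510%) lay under that limit, so that they cannot be told from free RNA by this comparison. The share in CD8 cells was 7.47% (6.02% to 9.15%).

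Klra7 encodes Ly49G2, an inhibitory receptor, and it was the leading member in CD8 cells. Its level was 37.8 CPM (191 UMIs), against 3.15 CPM in Treg cells (26 UMIs), 3.59 CPM in Tconv cells (18 UMIs), 25.2 CPM in NKT cells (7 UMIs) and none in myeloid cells. CD8 cells were 12-fold (7.95 to 18.9) above Treg cells and 10.5-fold (6.49 to 18.2) above Tconv cells, whereas the interval of the ratio to NKT cells, 1.503 (0.715 to 3.79), included 1. Of the 72 CD8 cells with Klra7, 45 (62.5%) had at least 2 of its UMIs, and the highest had 11. In Tconv cells 15 of the 18 UMIs came from 1 cell, and without it 3 remained in the other cells. In NKT cells 6 of the 7 UMIs came from 1 of the 2 cells with Klra7.

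Klra6 encodes Ly49F and Klra1 encodes Ly49A, both with an inhibitory motif in their tail. Klra6 had 14.8 CPM in CD8 cells (75 UMIs in 48 cells), 12.3-fold (6.31 to 26.6) above Treg and 9.31-fold (4.49 to 22.4) above Tconv cells. Klra1 had nearly the same level in CD8 cells, 14.6 CPM (74 UMIs in 38 cells), but another order across classes. It was highest in NKT cells at 122 CPM (84.6 to 171), 8.34-fold (5.39 to 12.7) above CD8 cells and 13-fold (8.14 to 20.7) above Tconv cells, which themselves had 9.36 CPM. The 21 cells of both classes counted on both sides of the ratio to Tconv cells. With cells of 1 class only and a CD3 UMI, the summed Ly49 level was 16.6 CPM in Tconv and 190 CPM in NKT cells. Klra1 made up 60.7% of the Ly49 UMIs of NKT cells (46.8% to 73.5%), 46.1% in Tconv cells, 18.7% in CD8 cells and 11.8% in Treg cells. Of the 17 Tconv cells with Klra1, 11 had at least 2 of its UMIs, and none of the 9 such Treg cells did.

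The NKT pattern was seen again in cells picked by their receptor in place of Zbtb16. The 62 kept cells with the invariant alpha chain of NKT cells (TRAV11 joined to TRAJ18) had a summed Ly49 level of 213 CPM (155 to 285), of which Klra1 gave 116 CPM (24 UMIs in 8 cells). Klra3 and Klra9 each had 8 UMIs there, Klra6 had 4, and Klra2, Klra5 and Klra7 had none. Of these 62 cells 16 were among the 81 NKT cells of the Zbtb16 rule, so the sets shared part of their cells.

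Klra3 (Ly49C) and Klra9 (Ly49I), receptors for H-2Kb in this strain, had 4.55 and 5.15 CPM in CD8 cells (23 and 26 UMIs). In NKT cells they had 21.6 CPM (7.91 to 46.9) and 14.4 CPM (3.92 to 36.8), on 6 and 4 UMIs. Treg and Tconv cells had 0.398 to 2.59 CPM of either gene. Klra5 (Ly49E) was near the limit of detection in every class, with 2 UMIs in CD8, 5 in Treg, 3 in Tconv and 1 in NKT cells, and 14 of its 24 UMIs were in cells of no class.

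Klra2 encodes Ly49B, which is known from myeloid cells. It was found at 84.8 CPM (63.9 to 110) in myeloid cells, in 38 of 129 cells, and made up 96.5% of their Ly49 UMIs. Its level there was 85.7-fold (34.6 to 274) above CD8 cells, 63.7-fold (32.96 to 135) above Treg cells and 38.7-fold (20.03 to 82) above Tconv cells, and no NKT cell had it. The 3 CD8 cells with Klra2 also met the myeloid rule, so their 5 UMIs counted on both sides of that ratio, as did 2 of the 11 UMIs of Treg and 1 of the 11 of Tconv cells. With cells of both classes left out, CD8 cells had no Klra2 UMI, which at a limit of 3 counts puts myeloid cells at least 139-fold higher, and the ratios to Treg and Tconv cells were 75.6 (36.6 to 175) and 41.3 (20.6 to 91.7). The other 2 Ly49 UMIs of myeloid cells were of Klra3.

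Within the T cell classes, the cells with Klra2 stood apart from those with other members. All 22 T cells with a Klra2 UMI also had a UMI of Csf1r, Lyz2, Cd68, C1qa, Adgre1 or Itgam, at 8715 CPM for these 6 markers together, and Csf1r itself was in 14 of them. The 199 T cells with another member and no Klra2 had 55.3 CPM of the same markers in 18 cells (9.05%), and the 5477 T cells with no member had 107 CPM in 465 cells (8.49%). None of the 22 cells had a UMI of another Ly49 gene. The part of myeloid RNA or of joined cells in the Klra2 UMIs of T cells was not tested.

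A Ly49-positive CD8 cell often showed more than 1 of the genes. Without thinning, 79 of 131 positive CD8 cells had 1 gene, 44 had 2, 7 had 3 and 1 had 4, so that 39.7% (31.3% to 48.6%) had at least 2. After thinning to 1500 UMIs it was 21 of 87 (24.1%, 15.6% to 34.5%). The share without thinning was 22.2% of 18 NKT cells, 19.0% of 42 Treg cells and 14.3% of 35 Tconv cells, and none of the 40 positive myeloid cells had 2, which allows up to 7.5%. Cells with at least 2 productive beta chains made up 7.63% of the Ly49-positive and 6.64% of the Ly49-negative CD8 cells.

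**Figure D2:**
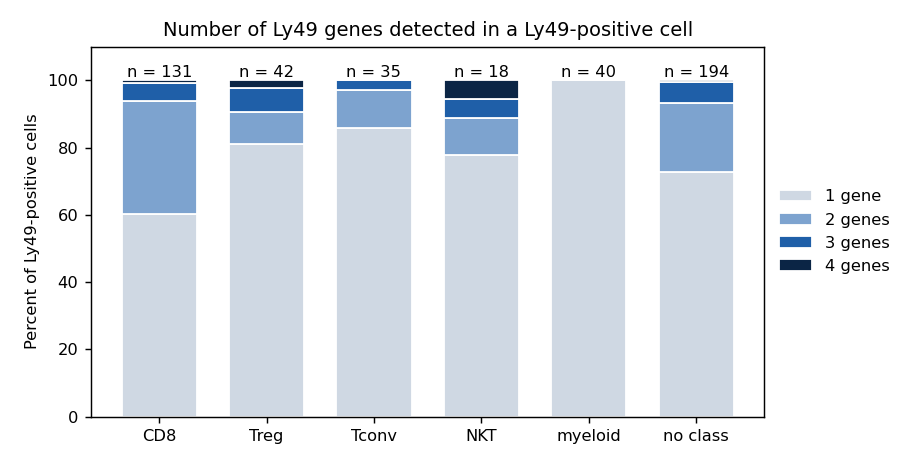
Number of Ly49 genes detected in a Ly49-positive cell, as a percent of the positive cells of each class and of cells in no class (without thinning). Segments are 1, 2, 3 or 4 genes, and n is the number of positive cells. In CD8 cells 44 of 131 had 2 genes and 8 had more, whereas all 40 positive myeloid cells had 1.

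Of the 21 pairs of members, 9 were seen together in a CD8 cell and 12 were not. Klra6 with Klra7 was the most common pair, in 27 cells, and 56.3% of the 48 Klra6-positive cells (41.2% to 70.5%) had Klra7, against 3.71% of the 1212 Klra6-negative cells (2.72% to 4.94%). At 1500 UMIs the pair was in 11 cells, with Klra7 in 40.7% (22.4% to 61.2%) of Klra6-positive and 3.02% of Klra6-negative cells. Klra1 was with Klra7 in 15 cells and with Klra6 in 10 cells, and Klra7 was in 39.5% (24.0% to 56.6%) of Klra1-positive against 4.66% of Klra1-negative cells. However, the negative cells mostly had no member, as did 1129 of the 1260 CD8 cells without thinning. Of the 131 Ly49-positive cells 72 had Klra7, and of these 72 cells 45 lacked Klra6 and 57 lacked Klra1. These gaps therefore do not show that Klra7 was more common with Klra6 or Klra1 than in other Ly49-positive cells.

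Of its 16 CD8 cells, Klra3 was with Klra7 in 6, with Klra6 in 6 and with Klra1 in none. Klra9 was with Klra7 in 3, with Klra1 in 2 and with Klra6 in 1 of its 13 cells. The most common make-ups were Klra7 alone (29 cells), Klra6 with Klra7 (19), Klra1 alone (17), Klra6 alone (13) and Klra1 with Klra7 (10). In the cells of no class Klra6 and Klra7 were again found together, in 14 of 33 Klra6-positive cells (42.4%) against 1.67% of Klra6-negative cells. Klra1 and Klra3 were together there in 6 of 34 Klra3-positive cells (17.6%, 6.76% to 34.5%) against 1.64% of Klra3-negative cells. There too the negative cells mostly had no member, as did 3076 of the 3270 cells of no class.

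**Figure D3:**
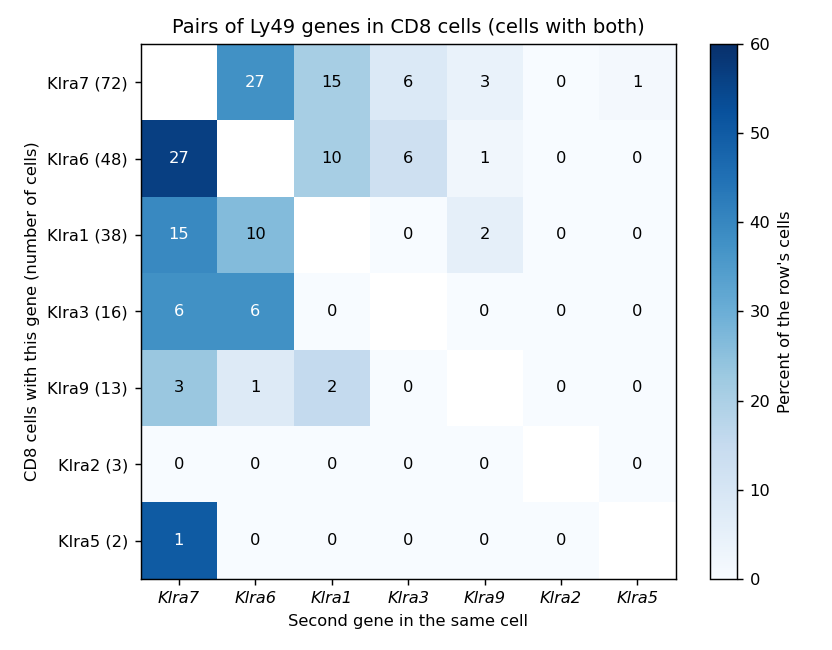
Pairs of Ly49 genes in the same CD8 cell, without thinning. Rows are the CD8 cells with a UMI of 1 gene, columns the second gene, numbers the cells with both, and color the percent of the row's cells. The darkest well-filled field is Klra7 among the 48 Klra6-positive cells (27 cells), and the 1 cell of Klra5 with Klra7 rests on 2 Klra5-positive cells.

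The CD8 co-receptor chains were set apart by Ly49. CD8α and CD8β form the usual heterodimer, and cells of innate-like lineages may have CD8α alone. Without thinning, 67 of 131 Ly49-positive CD8 cells had a Cd8a but no Cd8b1 UMI (51.1%, 42.3% to 59.97%), against 125 of 1129 Ly49-negative cells (11.1%, 9.30% to 13.05%). Cd8b1 had 304 CPM in Ly49-positive and 931 CPM in Ly49-negative cells, a ratio of 0.327 (0.279 to 0.380), whereas Cd8a had 432 and 498 CPM, a ratio of 0.867 (0.758 to 0.989). At 1500 UMIs per cell, where more cells showed neither chain (37.9% and 16.4%), Cd8a without Cd8b1 was seen in 32.2% (22.6% to 43.1%) of positive and 14.2% (12.1% to 16.4%) of negative cells. At this depth the ratios were 0.306 (0.216 to 0.422) for Cd8b1 and 0.878 (0.654 to 1.16) for Cd8a.

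Read from the chains, 34.9% of the 192 CD8 cells with Cd8a and no Cd8b1 (28.2% to 42.1%) were Ly49-positive, against 5.99% of the 1068 cells with Cd8b1 (4.65% to 7.59%). At 1500 UMIs these shares were 30.6% and 3.83%. By member, Klra7 was at 192 against 16.7 CPM, Klra6 at 77.2 against 6.30 CPM, Klra1 at 72.3 against 6.75 CPM, Klra3 at 21.4 against 2.25 CPM and Klra9 at 18.1 against 3.38 CPM. Klra2 had 4 UMIs in cells with Cd8a alone and 1 in cells with Cd8b1, and Klra5 had none and 2. Differences between members in this respect were not compared. This comparison was chosen after the values were seen.

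Ly49 was followed in 4 CD8 states, defined by genes other than Klra and allowed to overlap. All CD8 cells had a share of 7.56% and a level of 78.4 CPM, above the values in each of these 4 states, and among the 4 both were lowest in checkpoint cells and highest in cells with interferon-induced genes, though the intervals of the shares overlapped. Checkpoint cells, with at least 2 of Pdcd1, Havcr2, Lag3 and Tigit, had 2.21% (0.959% to 4.31%) and 11.3 CPM (7.17 to 16.96). Terminal effector cells, with Cx3cr1 or S1pr5, had 2.26% (0.468% to 6.45%) and 26.5 CPM (14.8 to 43.7), on 15 UMIs. Of these UMIs, 7 were of Klra9 in 2 cells and 4 were of Klra2 in 2 cells, which also met the myeloid rule. Cycling cells, with Mki67 or Top2a, had 3.25% (1.41% to 6.31%) and 43.3 CPM. Cells with at least 2 interferon-induced genes had 5.22% (2.81% to 8.76%) and 61.4 CPM (47.8 to 77.5). Klra7, Klra6 and Klra1 were in 12, 11 and 7 of the 257 interferon cells, in 11, 6 and 5 of the 251 cycling cells, and in 6, 1 and 1 of the 374 checkpoint cells, of which 5 had Klra3.

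Ly49-positive CD8 cells were seldom in an expanded clone. A clone of at least 2 CD8 cells held 1 of 103 Ly49-positive cells with a clonotype (0.971%, 0.0246% to 5.29%) and 199 of 818 Ly49-negative cells (24.3%, 21.4% to 27.4%). The 103 positive cells belonged to 103 different clonotypes, and 72 of the 73 expanded CD8 clones had no positive cell. The exception had 2 cells, of which 1 carried Klra9. By the beta chain alone, 4% of positive (1.10% to 9.93%) and 35.6% of negative cells (32.3% to 39.04%) were in expanded clones, and with no upper limit on detected genes 4.098% (1.34% to 9.31%) and 28.3% (25.6% to 31.1%). Clonotypes were found for 78.6% of the positive and 72.5% of the negative cells. Cells of both tumors were pooled, and a tumor was given to 122 CD8 cells, 8 of them Ly49-positive. The tumor of origin could therefore not be told apart from this contrast or from those of other genes below.

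The contrast was also seen within cells of like chains. Among cells with Cd8b1, 1 of 53 positive (1.89%, 0.0478% to 10.1%) and 190 of 752 negative cells (25.3%, 22.2% to 28.5%) were in expanded clones. Among those with Cd8a alone it was 0 of 50, which allows up to 6%, and 9 of 66 (13.6%, 6.43% to 24.3%).

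**Figure D4:**
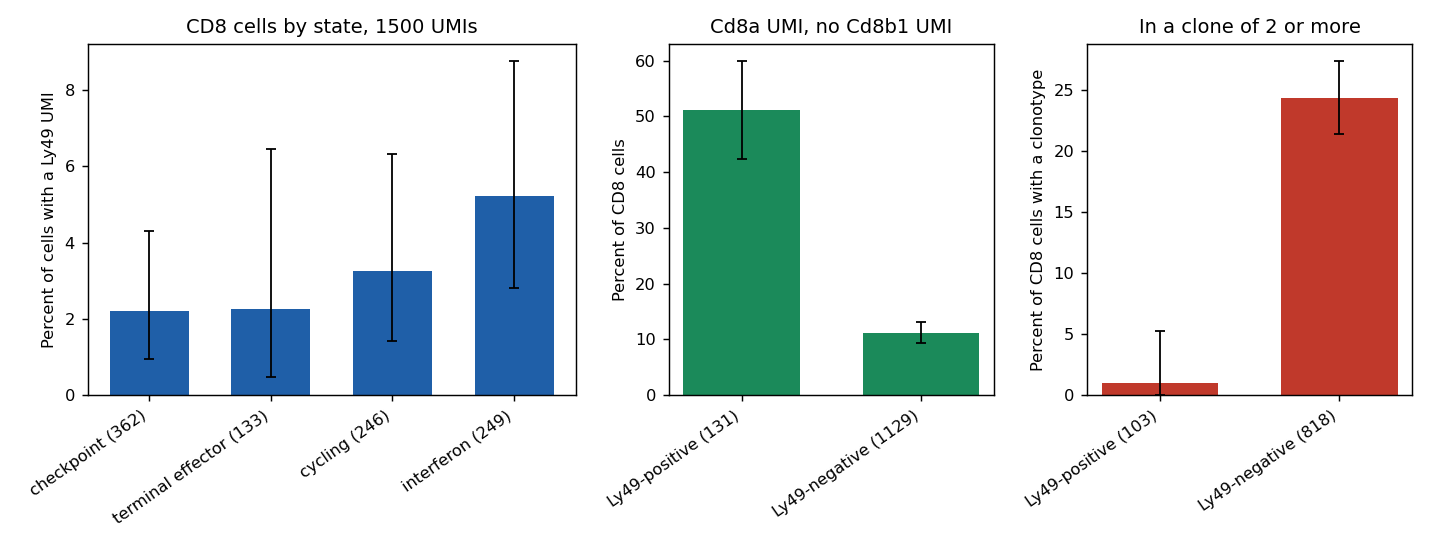
Left, percent of CD8 cells with a Ly49 UMI at 1500 UMIs per cell, by state. Middle, percent of Ly49-positive and Ly49-negative CD8 cells with Cd8a and without Cd8b1 UMIs, 51.1% and 11.1%. Right, percent of cells with a clonotype that were in a clone of at least 2 CD8 cells, 0.971% and 24.3%. Bars are exact binomial 95% intervals and numbers in brackets are cells.

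Other genes were compared between the 87 Ly49-positive and the 1064 Ly49-negative CD8 cells at 1500 UMIs, for the 3742 genes with at least 50 UMIs outside Klra and receptor segments. Of these, 15.5% differed by more than 2-fold, 1.76% being higher and 13.7% lower in Ly49-positive cells, and the median ratio of all genes was 0.903. Many of these genes had few UMIs in 87 cells, and 39 of them were at 0 in positive cells. With those 39 set at the limit of 3 counts, 12.96% were more than 2-fold lower and the median stayed at 0.903. The 8 highest ratios with an interval that excluded 1 were those of Fcer1g (5.13, 3.73 to 6.98), Id3 (5.12, 3.46 to 7.44), Lyz2 (4.55), Klhdc2 (4.45), Ikzf2 (4.204, 3.20 to 5.47), Xcl1 (3.93, 2.92 to 5.24), Tyrobp (3.57) and B9d2 (3.46). Without thinning B9d2 came to 1.31 with an interval that included 1, and the other 7 lay between 3.67 and 11.1.

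Lyz2, a lysozyme of myeloid cells, rested on few cells. Of its 319 UMIs in Ly49-positive CD8 cells without thinning, 295 were in the 3 cells with Klra2. Fcer1g, which encodes the Fc receptor gamma chain that pairs with several NK receptors, and Tyrobp, which encodes DAP12, are used by myeloid cells too. Of the thinned cells, 6.90% of the positive and 13.7% of the negative ones had a UMI of the 6 myeloid markers. With those cells left out, Fcer1g had a ratio of 14.2, Tyrobp 6.18 (1.88 to 18.2), Ikzf2 4.21, Id3 5.05 and Xcl1 3.43. Without thinning, 102 of the 145 Tyrobp UMIs of positive cells were in the 3 cells with Klra2. The 128 positive CD8 cells without Klra2 had 76.3 CPM of Tyrobp (55.2 to 103), against 53.0 CPM (46.4 to 60.2) in cells with no member, with overlapping intervals. In these 128 cells, Fcer1g was in 58 cells (45.3%) and Csf1r in none.

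Ikzf2 encodes Helios, a factor of Treg and of innate-like T cells. It was in 71.0% of Ly49-positive CD8 cells (62.4% to 78.6%) and 26.0% of Ly49-negative ones (23.4% to 28.6%). It was in 61 of 72 Klra7-positive, 40 of 48 Klra6-positive and 27 of 38 Klra1-positive CD8 cells. Xcl1, a chemokine for cross-presenting dendritic cells, was in 55.7% and 8.33% of the cells. Within cells with Cd8b1, Ikzf2 had 314 CPM in Ly49-positive and 118 CPM in Ly49-negative cells, and within cells with Cd8a alone 639 and 242 CPM.

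The 8 genes named as lowest, all at 0 UMIs in thinned positive cells and so tied in alphabetical order, were 2310011J03Rik, Acbd5, Acsl4, Adam17, Bin3, Cat, Cdkn2aip and Cx3cr1. Of these, Cx3cr1 had 76 UMIs in negative cells, and the limit of 3 counts puts its ratio at up to 0.483. The limit was 0.489 to 0.734 for the other 7, of which 2310011J03Rik alone had one under 0.5. Without thinning the 8 ratios lay between 0.126 and 0.951, with Cx3cr1 at 0.377 (0.160 to 0.760).

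Effector genes were lower in Ly49-positive cells. This and the following gene lists were chosen with earlier results of these data known, so their counts are a description. Of the 9 effector genes in the comparison, 7 were more than 2-fold lower and none higher, beside 13.7% lower and 1.76% higher over all genes. The median ratio was 0.213, or 0.286 with Cx3cr1 at its limit, beside 0.903 over all genes. Gzmb, a granzyme, had a ratio of 0.206 (0.136 to 0.299), Prf1, the pore-forming perforin, 0.120 (0.0145 to 0.441) and Ifng, the cytokine interferon-γ, 0.286 (0.147 to 0.503). Ccl5 and Nkg7, which are also used by memory cells, had 0.565 (0.527 to 0.604) and 0.734 (0.630 to 0.851). Gzma had a ratio of 0.150 at equal depth and 0.533 without thinning, where 1 cell held 149 of its 276 UMIs in the positive cells, and 10.7% of positive against 29.3% of negative cells had it. Within cells with Cd8b1 and without thinning, Gzmb had 524 CPM (446 to 612) in positive and 1196 CPM (1163 to 1230) in negative cells. Gzma had 871 CPM (769 to 982) and 951 CPM (922 to 982) there, with overlapping intervals. However, 149 of the 266 Gzma UMIs of these positive cells were in that 1 cell, which the interval does not take into account. Without the top cell of each set, Gzma had 222 CPM in all positive and 873 CPM in all negative CD8 cells. Within cells with Cd8a alone, Gzmb had 36.5 CPM (17.5 to 67.2) and 543 CPM (467 to 628), and Gzma had 36.5 CPM (17.5 to 67.2) and 188 CPM (145 to 241).

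Of the 7 checkpoint genes in the comparison, 4 were more than 2-fold lower and none higher, with a median of 0.470, beside 13.7% lower and 1.76% higher over all genes. Lag3 had a ratio of 0.200 (0.0542 to 0.520), Tnfrsf9, the costimulatory receptor 4-1BB, 0.278 (0.119 to 0.554) and Ctla4 0.296 (0.134 to 0.568), and Havcr2 had 0.470 (0.0950 to 1.43), whereas Pdcd1 had 0.527 (0.237 to 1.02) at equal depth and 0.312 (0.204 to 0.458) without thinning. The ratios of all 4 cycling genes were under 0.5, on 1 to 6 UMIs a gene in positive cells, beside 13.7% of all genes. Of the 4, Stmn1 had an interval below 1 (0.386, 0.140 to 0.856), and without thinning 2 were past 2-fold. Of 6 interferon-induced genes 1, Ifit1, was more than 2-fold lower, beside 13.7% of all genes, with an interval up to 1.00 and a ratio of 0.884 without thinning.

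The innate-like list, like the others, was chosen with earlier results of these data known. Of 13 innate-like or virtual memory genes, 4 were more than 2-fold higher and 1 lower, with a median of 1.45, beside 1.76% higher and 13.7% lower over all genes and their median of 0.903. The higher ones were Fcer1g, Ikzf2, Xcl1 and Cd160 (2.63, 1.54 to 4.30), a receptor of memory and intestinal CD8 cells, and the lower one was Klrc1 (0.454, 0.232 to 0.805), which encodes the inhibitory receptor NKG2A and had 0.573 (0.436 to 0.741) without thinning. Its partner Klrd1 (CD94) had 1.78 (1.39 to 2.27). Gzmm and Itgae of this list had too few UMIs for the comparison. Without thinning their ratios were 0.153 (0.0183 to 0.567) and 0.572 (0.150 to 1.55). Of 9 naive and central genes 1 was more than 2-fold higher, the chromatin organizer Satb1 (2.07, 1.47 to 2.85, and 1.69 without thinning), and 2 were lower, S1pr1 and Igfbp4, on 3 and 1 UMIs, with S1pr1 at 0.998 without thinning. Tcf7, which encodes TCF-1 and acts on Ly49 promoters, had a ratio of 1.63 (1.11 to 2.32), and the median of the list was 1.21, with 1.76% of all genes higher and 13.7% lower.

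Of the 8 regulators linked to Ly49 transcription, Ikzf2 was more than 2-fold higher and none lower, with a median of 1.27, beside 1.76% of all genes higher. Ikzf2 was already counted in the innate-like list. Runx3 had 1.13 (0.700 to 1.73), Eomes 1.41 (0.651 to 2.71), Tbx21 0.624 (0.198 to 1.51) and Il2rb, the receptor chain for IL-15, 1.45 (1.10 to 1.88). Of the 9 genes of the signalling and ligand list, Fcer1g and Tyrobp were more than 2-fold higher and none lower, beside the same 1.76%. Fcer1g too was already counted in the innate-like list. Most Tyrobp UMIs of the positive cells were, without thinning, in the 3 cells with Klra2. The inhibitory phosphatases Ptpn6 (1.33, 0.757 to 2.20) and Inpp5d (1.26, 0.654 to 2.24) and the ligand genes H2-K1 (0.877) and H2-D1 (0.856) stood within 2-fold.

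Among the other lectin receptors listed, Klre1 was more than 2-fold higher (2.70, 1.55 to 4.48) and Klrc1 and Klrg1 were lower, of 5 with enough UMIs, beside 1.76% higher and 13.7% lower over all genes. Klrb1c, which encodes NK1.1, had too few UMIs for the comparison, with 20 UMIs in positive and 17 in negative cells without thinning, a ratio of 9.09 (4.52 to 18.5). Ncr1, a receptor of NK cells, was at 0 in Ly49-positive CD8 cells and had 1 UMI in Ly49-negative ones, so that it does not tell these sets apart.

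**Figure D5:**
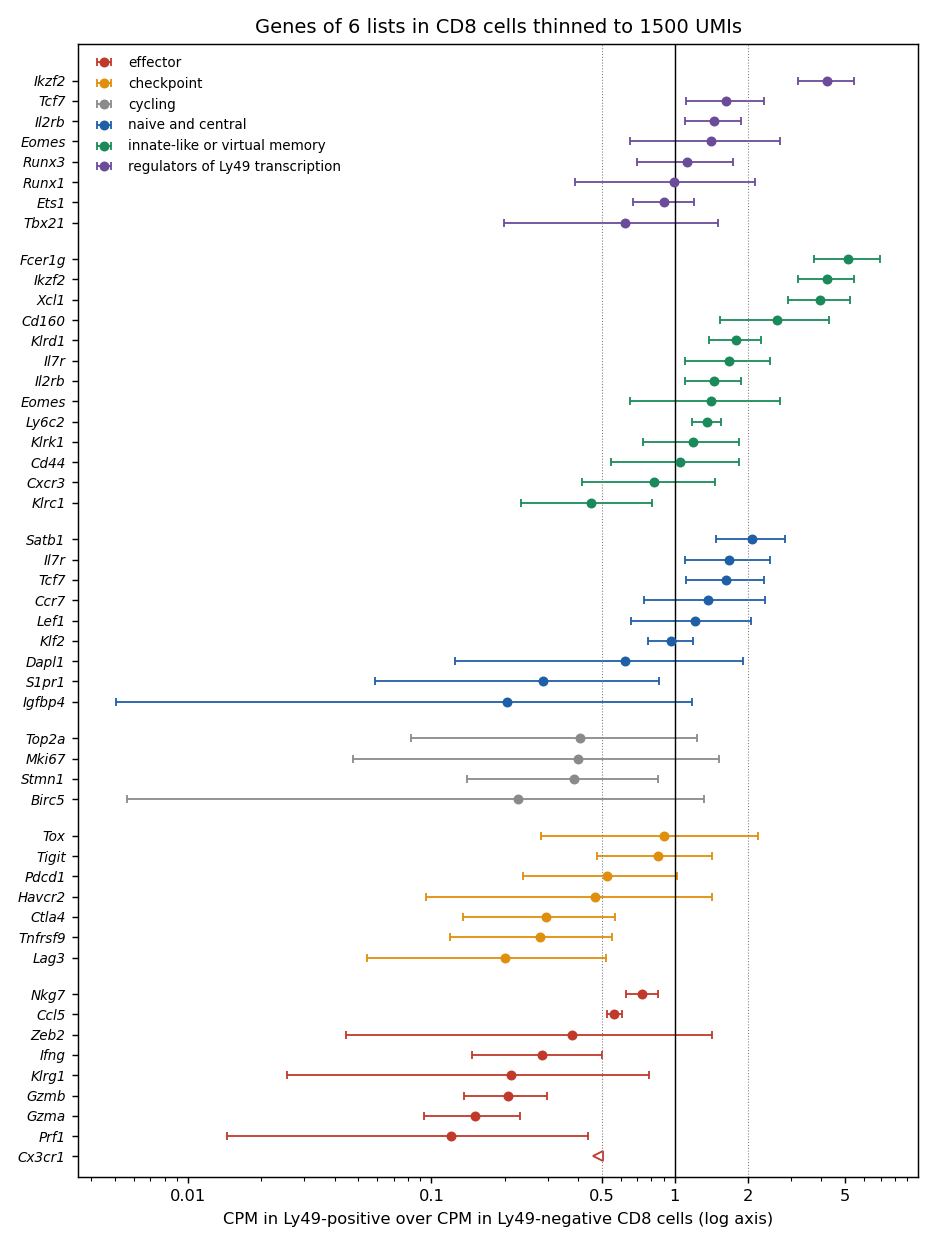
Ratio of CPM in Ly49-positive to CPM in Ly49-negative CD8 cells (log axis) for the genes of 6 lists, at 1500 UMIs per cell. Points are ratios, bars exact 95% intervals, dotted lines 0.5 and 2, and the open triangle is Cx3cr1 at 3 UMIs, since it had none in positive cells. Fcer1g (5.13) and Ikzf2 (4.204) lie farthest to the right, and 7 of the 9 effector genes lie left of 0.5, Cx3cr1 among them at its limit of 0.483.

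Cells of no class held 453 of the 1111 Ly49 UMIs, in 194 of 3270 cells, at 60.3 CPM (54.9 to 66.2). Of these, 166 had a member other than Klra2, with Klra1 (131 UMIs) and Klra7 (127 UMIs) at about equal numbers, followed by Klra9 (52), Klra6 (46), Klra3 (45) and Klra5 (14). A CD3 UMI was in 148 of the 166 cells (89.2%) and a clonotype in 97 (58.4%), and 7 had the invariant alpha chain. They had 12.2 CPM of Cd4 and of Cd8a, on 6 UMIs each, and 18.3 CPM of Cd8b1.

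The NK markers Klrb1c and Ncr1 were higher in these cells than in cells of no class without a member. Klrb1c had 124 CPM (94.6 to 159) against 7.56 CPM (5.64 to 9.91), and Ncr1 14.2 CPM (5.71 to 29.3) against 1.31 CPM (0.598 to 2.48). The intervals of Trdc, of the γδ receptor, overlapped at 6.08 CPM (1.25 to 17.8) and 3.63 CPM (2.35 to 5.36). Klra8 and Klra4 were found here more than in CD8 cells, with 21 and 20 UMIs in 8 and 4 of these 166 cells against 8 and 1 UMIs in all 1260 CD8 cells. What share of the 166 cells were NK or double-negative T cells was not tested.

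Treg cells had the lowest Ly49 level. Of 42 positive Treg cells, 10 had Klra2, all of them with a myeloid marker, and 14 had Klra7, 11 of these with 1 UMI. The 32 with another member and no Klra2 had 865 CPM of Ikzf2 against 862 CPM in Treg cells with no member, and Fcer1g in 9 cells (28.1%) against 5.92%. Of 26 Tconv cells with a member and no Klra2, 17 had Klra1, of which 4 had a Zbtb16 UMI and so were NKT cells too. Fcer1g was in 11 of the 26 (42.3%) against 4.79% of Tconv cells with no member.

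The tumor of origin could be set for few cells. The hashtag library held 554 and 929 UMIs of the 2 B16 tags and 102 and 145 of the 2 B16-IL33 tags, against 22837655 UMIs that matched no tag. A tumor was given to the 939 kept cells with at least 1 tag UMI, all from tags of 1 tumor. Whether so few tag UMIs mark the true tumor of a cell was not tested. Ly49 was at 26.7 CPM (13.3 to 47.7) in 103 CD8 cells of the B16 tags, with 5 positive cells, and at 35.6 CPM (7.34 to 104) in 19 CD8 cells of the B16-IL33 tags, with 3 positive cells. The ratio of B16-IL33 to B16 was 1.33 (0.239 to 5.05), on 3 and 11 UMIs, so that a difference was not detectable with these tags and at this depth. By tag, CD8 cells had 57.1 and 10.5 CPM for the 2 B16 tags and 24.0 and 47.1 CPM for the 2 B16-IL33 tags.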

How the data were processed

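T cells of 1 pool were measured by 10x 5′ single-cell RNA sequencing with hashtag and TCR libraries. The authors deposited raw counts of UMIs per gene and barcode, raw counts of UMIs per hashtag, and counts of UMIs per TCR contig. The header of the gene expression file names Cell Ranger 3.1.0 and the labels name 6.1.1, and gene names are those of a combined human and mm10 reference, of which 8562 human UMIs were not used. No doublet caller was run.

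Cells were kept with 200 to 2500 detected genes and mitochondrial UMIs under 5%, after the study's methods. CPM is the summed UMIs of a gene over the mouse UMIs of the cells, with exact Poisson intervals. Shares have Clopper-Pearson intervals and ratios exact conditional binomial intervals, all at 95%, and a count of 0 was given the limit of 3 counts, the exact interval then serving only to select genes and to draw bars. As the libraries come from 1 pool, no p-value was computed. Cells were thinned to 1500 UMIs at random with a fixed seed. A Ly49-positive cell has at least 1 UMI of a member. Genes named are the members, the other Klra genes, the 8 highest and 8 lowest ratios whose interval excludes 1, and list genes past 2-fold or defining their list. A gene of the naive and central list and a cell state defined with it are not reported here. The members and lists were chosen with earlier results of these data known. Python 3.11.15, NumPy 2.4.6, pandas 2.3.3 and SciPy 1.17.1 were used. The gene ratios were tested on simulated Poisson counts of pooled cells, which do not include the gathering of UMIs in single cells.

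Alternatives were another gene limit, a mitochondrial limit of 10%, cells with at least 2 beta chains left out, stricter classes, thinning to 1000 UMIs or none, at least 2 Ly49 UMIs, at least 20 UMIs per gene, other clone rules, single tags and CPM averaged over cells. Leaving out T cells with a myeloid UMI and taking NKT cells by the invariant alpha chain, leaving out cells of both the myeloid and a T cell class, and the ratios between classes with no upper gene limit were added after seeing the data.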

Additional observations from a re-analysis of the deposited data

Results flagged for a closer look

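Ly49 UMIs were also present in barcodes that the quality filter had left out. The 766 barcodes with more than 2500 detected genes had a summed level of 8.23 CPM (111 UMIs in 62 barcodes, median depth 13576 UMIs), of which Klra2 gave 45 UMIs. The 1967 barcodes with at least 5% mitochondrial UMIs had 57.9 CPM (151 UMIs in 73 barcodes, median depth 936 UMIs), of which Klra7 gave 77 UMIs. Both lie above the level of 3 counts, and neither enters the comparisons.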

How the results depend on the processing

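Of 114 alternative values for 19 results, 92 lay within the counting interval of the value reported, or within 1.5 times of it for the percent of genes past 2-fold, and 22 did not. With no upper limit on detected genes, the summed level was 46.8 CPM in CD8, 150 CPM in NKT and 48.5 CPM in myeloid cells, and 28.3% of Ly49-negative CD8 cells (4.098% of Ly49-positive ones) were in expanded clones. Averaged over cells, CPM was 14.96 in Tconv cells. Without thinning, positive cells were 10.4% of CD8, 1.61% of Treg and 31.0% of myeloid cells, 39.7% of positive CD8 cells had at least 2 genes, and 9.33% of genes were past 2-fold. At 1000 UMIs positive cells were 4.74% of CD8 and 5.65% of myeloid cells, Klra7 was in 22.2% of Klra6-positive CD8 cells, and 23.8% of genes were past 2-fold. That share was 28.9% with at least 2 Ly49 UMIs and 23.8% with at least 20 UMIs per gene. Clones of at least 3 cells held 0% of Ly49-positive and 11.98% of Ly49-negative CD8 cells, clones by the beta chain 35.6% of Ly49-negative and 4% of Ly49-positive cells, and without cells with a myeloid UMI it was 20.9%. In B16 cells the 2 tags alone gave 57.1 and 10.5 CPM. The cause was not tested. Depth limits Klra5 and all members in NKT cells other than Klra1. The tumor comparison is limited by depth and by the few tag UMIs. No paired analysis was possible because the series is 1 pool.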
